A study of Mus musculus with 7 samples.

Results

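Tyro3 and Met encode receptor tyrosine kinases, and both were among the genes with higher transcript levels in Batf knockout (KO) splenic B cells. The pair was chosen by symbol from the deposited table of differential expression, so it comprises 2 of the 752 genes listed there. The table holds the genes that passed the authors' false discovery rate (FDR) threshold of 0.05 in the comparison of Batf KO with wild type, which is 3.81% of the 19734 genes the authors tested. Genes listed as higher in Batf KO make up 1.95% of those tested. Because the same comparison chose both genes, their difference between genotypes is given here as a description, with no test.

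Total RNA was sequenced from 3 Batf KO and 4 wild-type libraries of mouse splenic B cells, all labelled with the strain background C57BL/6J. The B cells had been separated on magnetic columns and cultured for 6 h with 20 µg/mL lipopolysaccharide (LPS), a bacterial ligand of TLR4, and 20 ng/mL interleukin-4 (IL-4). Both genotypes received this stimulation, and resting cells were not analysed here. BATF, a leucine zipper transcription factor, pairs with JUN proteins and binds AP-1 sites in DNA. The sources used here give neither the form of the Batf allele nor the age and sex of the mice. Nor do they say whether B cells were taken as the bound or the unbound fraction.

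Receptor tyrosine kinases are single-pass membrane proteins whose cytoplasmic kinase domain is activated when an extracellular ligand brings receptors together. Phosphorylated tyrosines on the receptor then recruit adaptors that feed the RAS, phosphoinositide 3-kinase and phospholipase C gamma pathways. TYRO3 belongs with AXL and MERTK to the TAM family, whose ligands GAS6 and protein S bridge the receptors to phosphatidylserine on dying cells and membranes. In mouse dendritic cells and macrophages, TAM receptors dampen signalling from Toll-like and cytokine receptors. MET is the receptor of hepatocyte growth factor and is known for its part in liver regeneration and epithelial migration. In human tonsil, MET has been described on germinal centre B cells.

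The promoters are shown because both genes were higher when an AP-1 family factor was disrupted. Each sequence runs from 250 bases before to 50 bases after the transcription start annotated by RefSeq (GRCm38.p6), on the plus strand. Capitals mark a match to the AP-1 motif TGANTCA, whose letters read the same on both strands. The Tyro3 window is chr2:119799264-119799563 and the Met window is chr6:17463707-17464006.
Tyro3: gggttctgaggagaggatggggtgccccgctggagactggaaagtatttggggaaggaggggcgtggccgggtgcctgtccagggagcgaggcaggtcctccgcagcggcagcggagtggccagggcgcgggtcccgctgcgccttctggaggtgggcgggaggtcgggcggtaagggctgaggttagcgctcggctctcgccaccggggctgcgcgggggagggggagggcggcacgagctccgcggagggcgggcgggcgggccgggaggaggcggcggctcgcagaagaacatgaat
Met: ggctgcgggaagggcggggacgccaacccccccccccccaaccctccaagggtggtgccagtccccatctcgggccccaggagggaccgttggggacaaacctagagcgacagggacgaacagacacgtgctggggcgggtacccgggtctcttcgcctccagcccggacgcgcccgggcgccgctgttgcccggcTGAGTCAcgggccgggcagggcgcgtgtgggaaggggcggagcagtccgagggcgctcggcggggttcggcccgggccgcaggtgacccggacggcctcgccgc

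The AP-1 motif had 1 match in the Met window and none in the Tyro3 window. The match in Met lay 54 to 48 bases before the annotated start (chr6:17463903-17463909). This motif occurred in the promoter window of 8.97% of the 27025 genes with a sequence. A match describes these letters and is no evidence of binding, and a window without one says nothing about binding elsewhere. Both windows were rich in G and C, at 73.3% for Tyro3 and 75.7% for Met against a median of 52.7% over all windows. They held 31 and 34 CpG dinucleotides, against a median of 7. The GENCODE M21 annotation also starts a Tyro3 transcript 1781 bases further upstream and a Met transcript 157 bases further upstream, and the gene counts do not show which start was used.

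Tyro3 (ENSMUSG00000027298) lies on the plus strand of chromosome 2, from 119797733 to 119818104 (GRCm38). Its longest annotated coding transcript has 20 exons. Met (ENSMUSG00000009376) lies on the plus strand of chromosome 6, from 17463800 to 17573980, and its longest annotated coding transcript has 22 exons. No other annotated gene overlapped either one. Their reads are therefore not shared with an annotated antisense or overlapping gene.

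The Batf KO libraries had effective sizes of 23675459 to 30844920 reads, and the wild-type libraries 24891094 to 44728937 reads. Batf was 63.4, 70.3 and 65.8 CPM (reads scaled to a common library size) in Batf KO replicates 1 to 3, against 306.7 to 333.1 CPM over the wild type, so each library matched its genotype label. Of 10 B cell markers, Ms4a1, which encodes CD20, and the adaptor gene Blnk were listed (20%, beside 3.81% of all genes tested), both higher in Batf KO. Ms4a1 was 832 to 905 CPM in Batf KO and 533 to 613 CPM in wild type. Of 6 plasma cell markers, Irf4 and Prdm1 were listed (33.3%, beside the same 3.81%). Irf4 was higher, at 1371 to 1566 CPM in Batf KO and 597 to 727 CPM in wild type. Prdm1 was lower, at 5.20 to 6.75 CPM in Batf KO and 7.30 to 13.0 CPM in wild type. Of 50 markers of T and NK cells, macrophages, dendritic cells, neutrophils, platelets, red cells and stroma, 3 were listed, beside 3.81% of all genes tested. All 3 were higher in Batf KO. Of 12 T and NK cell markers only the T cell gene Cd8b1 was listed (8.33%, beside the same 3.81%). Cd8b1 was 7.42, 6.72 and 5.24 CPM in Batf KO, against 1.48, 2.56, 2.59 and 1.57 CPM in wild type. This was a 3.14-fold difference, of about the size of those of Tyro3 and Met below. The platelet gene Pf4 was 0.76 to 1.04 CPM in Batf KO and 0.28 to 0.63 CPM in wild type. The dendritic cell gene Zbtb46 differed by 1.44-fold and made up most of the sum of the 3, which was 79.6 to 97.3 CPM in Batf KO and 50.3 to 67.5 CPM in wild type, and none of them was at 0. No level is known for genes outside the table. The part of these cells in the levels of Tyro3 and Met was not tested, and in bulk RNA more cells of a type cannot be told apart from more RNA per cell.

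Tyro3 had 112, 165 and 119 reads in Batf KO replicates 1 to 3, against 75, 42, 54 and 46 reads in wild-type replicates 1 to 4. In CPM this was 3.63, 6.12 and 5.03 in Batf KO, against 1.88, 1.40, 1.21 and 1.85 in wild type. Every Batf KO library lay above every wild-type library, as it did for 91.1% of the genes listed as higher. The lowest Batf KO library was replicate 1, with an exact 95% counting interval of 2.99 to 4.37 CPM. The highest wild-type library was replicate 1, with an interval of 1.48 to 2.36 CPM. Tyro3 averaged 4.93 ± 1.25 CPM (SD, n = 3) in Batf KO and 1.58 ± 0.33 CPM (SD, n = 4) in wild type.

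The fitted log2 fold change of Tyro3 was 1.64 (SE 0.24), Batf KO over wild type, a 3.12-fold difference. It ranked 8 by size among the 339 genes listed as higher that had a mean of at least 1 CPM and entered the fit. The authors' deposited table gives Tyro3 an FDR of 5.32e-08. The Batf KO libraries differed among themselves by more than counting error, since a chi-square of their reads against equal levels was 9.28 per degree of freedom. In wild type it was 2.69.

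Met was carried by fewer reads, with 91, 66 and 72 in Batf KO replicates 1 to 3, against 45, 37, 42 and 13 in wild-type replicates 1 to 4. In CPM this was 2.95, 2.45 and 3.04 in Batf KO, against 1.13, 1.23, 0.94 and 0.52 in wild type. The groups did not overlap, and wild-type replicate 4 was the lowest of the 7 libraries. Met averaged 2.81 ± 0.32 CPM (SD, n = 3) in Batf KO and 0.95 ± 0.31 CPM (SD, n = 4) in wild type. The fitted log2 fold change was 1.54 (SE 0.26), a 2.90-fold difference, which ranked 12 among the same 339 genes. The authors' deposited table gives Met an FDR of 3.65e-06.

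The spread of Met between Batf KO libraries was close to counting error, with a chi-square of 0.96 per degree of freedom, and in wild type it was 2.73. Without wild-type replicate 4 the log2 fold change of Met was 1.36. Summed over all listed genes, the wild-type libraries were alike in pairs. The chi-square per gene was 17.9 between replicates 1 and 2, 20.2 between replicates 3 and 4 and 32.5 to 48.4 between the others. This measure rises with read number, so genes with many reads weigh most and larger libraries give larger values. Against replicates 1 and 2 alone the log2 fold change was 1.25 for Met and 1.57 for Tyro3. Against replicates 3 and 4 alone it was 1.88 for Met and 1.72 for Tyro3.

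**Figure D1:**
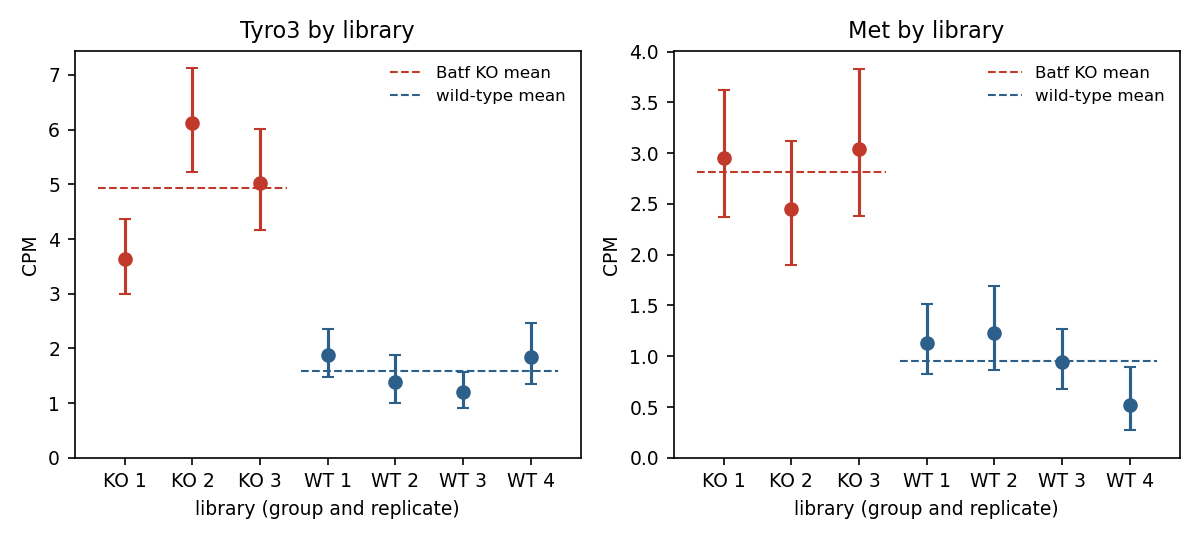
CPM of Tyro3 (left) and Met (right) in each library, with exact 95% counting intervals as bars and group means as dashed lines. All 3 Batf KO libraries lie above all 4 wild-type libraries for both genes, and Met is lowest in wild-type replicate 4, at 0.52 CPM.

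Within each group, the order of the libraries differed between the genes. Batf KO replicate 2 had the most Tyro3 of its group and the least Met. Wild-type replicate 4 had the second highest Tyro3 of its group and the least Met. The ratio of Tyro3 to Met reads within a library, which needs no library size, was 1.23, 2.5 and 1.65 in Batf KO replicates 1 to 3 and 1.67, 1.14, 1.29 and 3.54 in wild-type replicates 1 to 4. On the log2 scale it averaged 0.78 ± 0.51 (SD, n = 3) in Batf KO and 0.78 ± 0.73 (SD, n = 4) in wild type. The difference between these means was 0.01, smaller than the spread between libraries of either group.

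**Figure D2:**
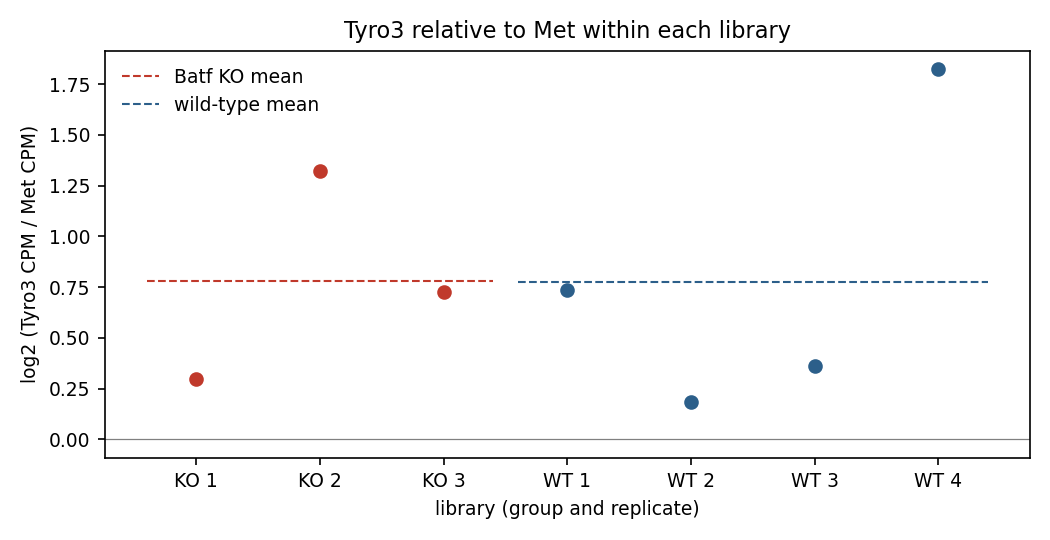
The log2 ratio of Tyro3 CPM to Met CPM within each library, with group means as dashed lines at 0.78 in Batf KO and 0.78 in wild type. The groups overlap, and the lowest and highest ratios are both in wild-type libraries.

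Per length, Tyro3 was the more abundant transcript in all 7 libraries. Divided by the annotated exon length of 6198 bases, Tyro3 was 0.79 ± 0.20 CPM per kilobase (SD, n = 3) in Batf KO and 0.26 ± 0.05 CPM per kilobase (SD, n = 4) in wild type. Met, with 7679 bases, was 0.37 ± 0.04 CPM per kilobase (SD, n = 3) in Batf KO and 0.12 ± 0.04 CPM per kilobase (SD, n = 4) in wild type. The Met level was thus 0.49 ± 0.17 of the Tyro3 level (SD, n = 3) in Batf KO and 0.51 ± 0.21 (SD, n = 4) in wild type. Both were low within the table, where 14.4% of the listed genes had a lower mean CPM than Tyro3 in wild type and 11.3% had a lower mean CPM than Met. In Batf KO these shares were 25% for Tyro3 and 20.2% for Met.

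**Figure D3:**
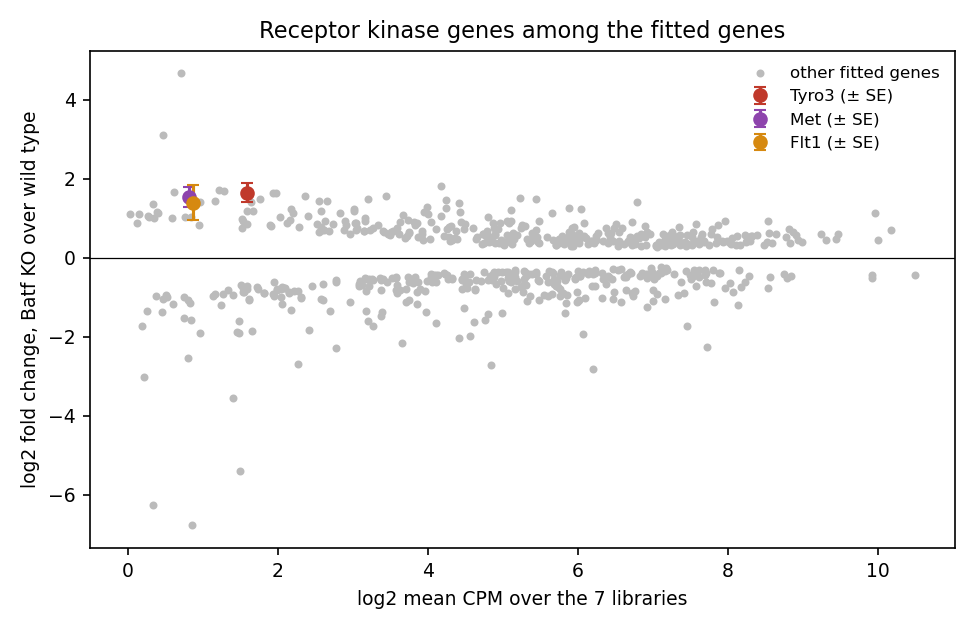
Fitted log2 fold change (Batf KO over wild type) against log2 mean CPM for the 667 fitted genes. Tyro3, Met and Flt1 are coloured, with SE bars, and lie at the low end of expression with log2 fold changes of 1.64, 1.54 and 1.39; the empty band around 0 reflects that the table holds called genes.

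Apart from Tyro3 and Met, which were taken from the table, 2 of 56 receptor tyrosine kinase genes were listed. That is 3.57%, near the 3.81% of all genes tested. Both were higher in Batf KO. They were Kit, the receptor of stem cell factor, and Flt1, a receptor of vascular endothelial growth factor. All of these genes had few reads. The other TAM genes, Axl and Mertk, and the closest relative of Met, Mst1r, were not listed.

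Kit had 44, 50 and 23 reads in Batf KO, against 19, 19, 6 and 6 reads in wild type, which is 0.97 to 1.86 CPM in Batf KO and 0.13 to 0.63 CPM in wild type. It fell below the minimum mean of 1 CPM and was not fitted. The ratio of its pooled reads per library size was 4.01, with an exact 95% counting interval of 2.86 to 5.70, which does not cover the spread between mice. The wild-type libraries differed by pair, with replicates 1 and 2 above replicates 3 and 4.

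Flt1 had 2.43, 3.6 and 2.37 CPM in Batf KO, against 1.58, 0.70, 0.38 and 1.69 CPM in wild type. Its log2 fold change was 1.39 with a larger SE of 0.45. Wild-type replicates 1 and 4 were the higher ones for Flt1, as they were for Tyro3. When edgeR's quasi-likelihood p-values were adjusted over all 19734 genes, a stricter rule that called 1.45% of them, Tyro3 and Met kept their calls and Flt1 did not, while Kit was not among the genes fitted. This rule reused the counts and the comparison that chose the genes, so a kept call is no independent support. None of 7 stromal and endothelial markers was listed, beside 3.81% of all genes tested. At that share a list of 7 genes may well hold none, and an unlisted gene may still be expressed. Per kilobase of exon the order of mean levels in Batf KO was Tyro3, Met, Flt1 (0.21 ± 0.05, SD, n = 3) and Kit (0.16 ± 0.05, SD, n = 3), and the last 2 differed by less than their spread. In wild type the order was the same, with Flt1 at 0.080 ± 0.048 and Kit at 0.042 ± 0.025 CPM per kilobase (SD, n = 4), and there the ranges of Met and Flt1 overlapped, as did those of Flt1 and Kit.

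**Figure D4:**
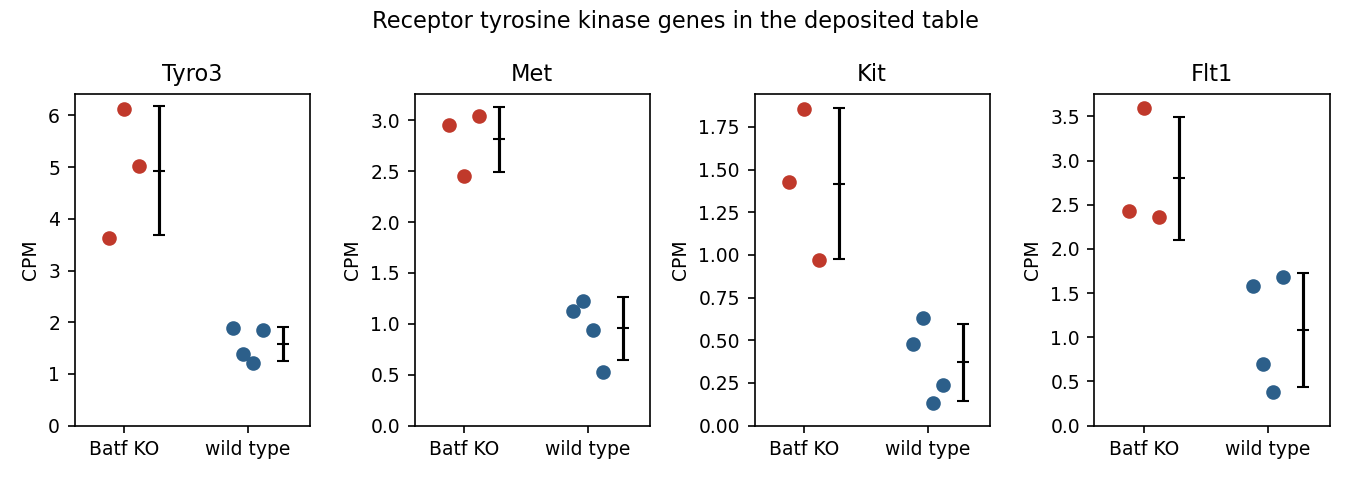
CPM of the 4 listed receptor tyrosine kinase genes by genotype; points are libraries and bars are mean ± SD. The axes differ between panels, and for each gene the Batf KO libraries lie above the wild-type libraries.

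Of 22 genes of the TAM pathway other than Tyro3, 3 were listed (13.6%, beside 3.81% of all genes tested), all higher in Batf KO. The list was drawn up with earlier results of these data known, so its share is a description and no evidence of enrichment. Neither ligand gene, Gas6 or Pros1, was listed. Socs3 encodes a feedback inhibitor of cytokine receptors that TAM receptors induce in mouse dendritic cells. It was 155, 180 and 140 CPM in Batf KO, against 98.5, 89.3, 78.6 and 94.7 CPM in wild type, a log2 fold change of 0.81 (SE 0.11). Batf KO replicate 2 was the highest library for both Socs3 and Tyro3. It was also the highest for Ifnar1, Ifnar2, Irf4, Plcg2 and Ets2, so this was not particular to Socs3 and Tyro3. Ifnar1 and Ifnar2 encode the chains of the type I interferon receptor, through which TAM receptors act in those cells. Ifnar1 averaged 85.0 ± 4.64 CPM (SD, n = 3) in Batf KO and 66.1 ± 5.28 CPM (SD, n = 4) in wild type. Ifnar2 averaged 51.4 ± 1.66 CPM (SD, n = 3) in Batf KO and 39.9 ± 4.64 CPM (SD, n = 4) in wild type. Under the stricter adjustment Socs3 kept its call, and Ifnar1 and Ifnar2 did not.

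Of 25 genes of the MET pathway other than Met, 2 were listed (8%, beside 3.81% of all genes tested), 1 higher and 1 lower in Batf KO. This list too was drawn up with earlier results known, so its share is no evidence of enrichment. The ligand gene Hgf was not listed. Ptprj encodes a receptor-type tyrosine phosphatase that acts on MET in human cells. It was 39.9, 38.9 and 35.6 CPM in Batf KO, against 21.2, 19.0, 22.4 and 28.5 CPM in wild type, a log2 fold change of 0.75 (SE 0.13). Plau encodes urokinase, a protease that activates plasminogen and can process the hepatocyte growth factor precursor. Plau had 25 reads in the 3 Batf KO libraries and 159 in the 4 wild-type libraries. Its pooled level was 3.71-fold lower in Batf KO (exact 95% counting interval 2.42 to 5.91, which does not cover the spread between mice). Like Kit, Plau fell below the minimum mean of 1 CPM and was not fitted, while Ptprj kept its call under the stricter adjustment. Its CPM ran from 0.17 to 0.37 in Batf KO and from 0.73 to 1.45 in wild type, so Plau was the listed MET pathway gene that differed in the direction opposite to Met.

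Among 65 genes of signalling shared by receptor tyrosine kinases, 5 were listed (7.69%, beside 3.81% of all genes tested), of which 3 were higher and 2 were lower. As with the pathway lists, earlier results were known when the list was drawn up, so the share is no evidence of enrichment. Cblb, a ubiquitin ligase that limits receptor signalling, was 48.9 to 49.8 CPM in Batf KO and 22.8 to 35.5 CPM in wild type, with a log2 fold change of 0.76 (SE 0.16). The transcription factor gene Ets2 was 39.9 to 42.8 CPM in Batf KO and 24.6 to 31.2 CPM in wild type. Plcg2, the phospholipase C gamma of B cells, had a log2 fold change of 0.33 (SE 0.09). Pik3cg, which encodes the gamma catalytic subunit of phosphoinositide 3-kinase, was the listed member with the largest difference. It was lower, at 1.91 to 2.41 CPM in Batf KO and 8.29 to 12.5 CPM in wild type. Whether receptor tyrosine kinases act through this subunit in these cells was not tested. Foxo1, a transcription factor restrained by phosphoinositide 3-kinase signalling, was 120 to 133 CPM in Batf KO and 179 to 210 CPM in wild type. Under the stricter adjustment Ets2, Pik3cg and Foxo1 kept their calls, and Cblb and Plcg2 did not. The genes for GRB2, SHC1, SOS1, MEK, ERK and AKT were not listed, and their levels are unknown here.

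Around Tyro3, 1 of the 50 other protein-coding genes within 1 Mb was listed, which is 2% beside 3.81% of all genes tested. It was Nusap1, a spindle-associated gene 146 kb upstream, which was 15.0, 14.2 and 29.5 CPM in Batf KO, against 9.96, 16.1, 9.10 and 7.35 CPM in wild type, and its groups overlapped. Nusap1 did not keep its call under the stricter adjustment. The genes next to Tyro3, Rpap1 at 10.2 kb upstream and Mga at 79.1 kb downstream, were not listed, and neither was the receptor kinase gene Ltk at 37.3 kb. None of the 10 other protein-coding genes within 1 Mb of Met was listed, including Cav1 and Capza2 on either side.

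The genes with profiles most like each receptor gene were found from log2 CPM over the 7 libraries, centred on the wild-type mean, by the smallest root mean square difference. All 7 libraries include the genotype difference that put each gene in the table, so genes with a similar fold change score as alike. The search also favours genes that are high or low in the same libraries of a group, so such a match is no separate finding. The gene nearest to Tyro3 was A930024E05Rik, annotated as an antisense RNA gene on chromosome 5 (122989354 to 122998345), at a distance of 0.17 with a Pearson r of 0.98 over 7 libraries. It was 3.66, 4.79 and 3.55 CPM in Batf KO, against 1.58, 0.997, 1.01 and 1.41 CPM in wild type. It overlaps Kdm2b on the other strand, which is also listed, and without a stated strand setting their shared reads cannot be told apart. Like Tyro3, A930024E05Rik was highest in Batf KO replicate 2 and in wild-type replicates 1 and 4, a match that the search favours. The next were the transporter gene Flvcr2, the serine protease gene Htra4, the rhomboid family gene Rhbdl3 and the prolyl hydroxylase gene Egln3, at distances of 0.26 to 0.29. Flvcr2 lies beside Batf on chromosome 12.

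The gene nearest to Met was Rassf4, a gene of the RAS association domain family, at a distance of 0.28 with a Pearson r of 0.98 over 7 libraries. It was 25.9, 22.3 and 23.4 CPM in Batf KO, against 9.96, 12.4, 9.37 and 7.19 CPM in wild type. Its lowest value was in wild-type replicate 4, as for Met, a match that the search favours. Rassf4 lies on chromosome 6 as Met does, from 116633008 to 116673952. The next were the tensin gene Tns1, Flvcr2, Tnfrsf11a, which encodes the receptor RANK, and the formin gene Fmnl2, at distances of 0.30 to 0.32. Among the 664 genes searched, Met ranked 39 in likeness to Tyro3, and Tyro3 ranked 51 in likeness to Met, at a distance of 0.55.

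**Figure D5:**
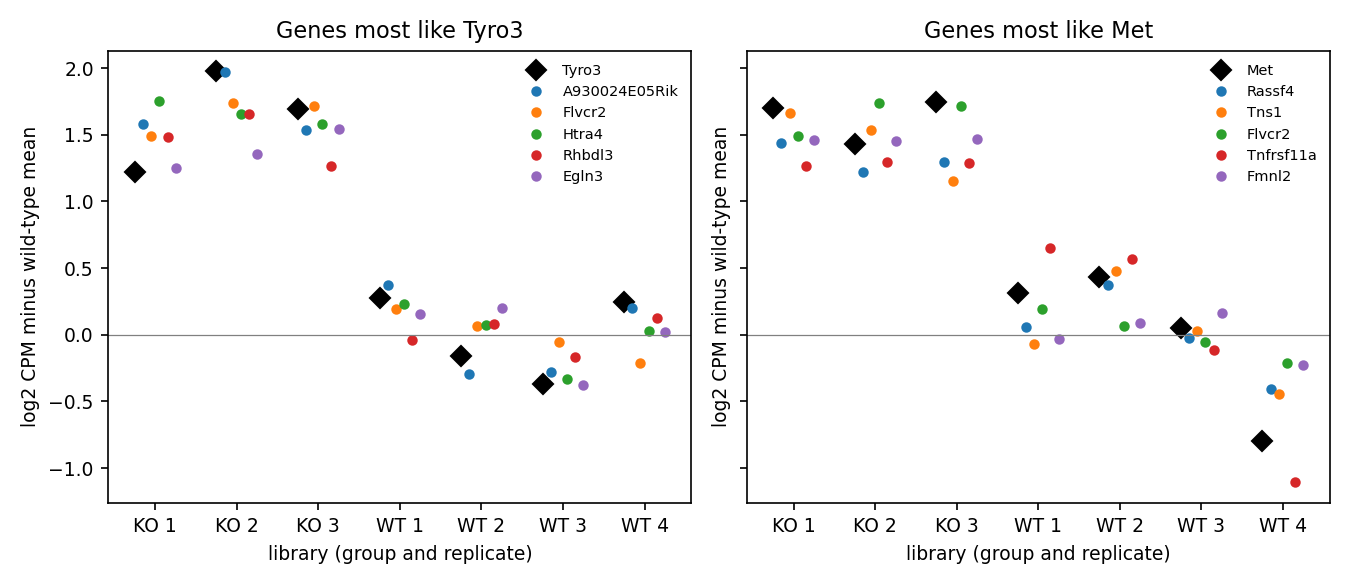
Log2 CPM minus the wild-type mean in each library for Tyro3 (left) and Met (right), drawn as diamonds, with the 5 genes most like each drawn as circles. A930024E05Rik follows Tyro3 at a distance of 0.17, and Met and the 5 genes most like it are all lowest in wild-type replicate 4. The genes were picked by likeness over these same libraries, so the shared pattern follows from the choice.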

How the data were processed

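Per the submitters' processing notes, the tools were TopHat2 2.0.6, HTSeq 0.5.3p7 and edgeR 3.03, on the build mm10, with no role given for any. How reads were assigned by strand, or when mapping to several places, is not stated in the sources used here. Per the file headers, the deposited table holds read counts and CPM values for each library. Per the file headers it also holds the authors' comparison of genotypes: log2 fold changes, log2 mean CPM, p-values, FDR and a likelihood ratio, which is a score. Count divided by CPM gave each effective library size, and the ratio of FDR to p-value gave the 19734 genes tested.

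Groups came from the genotype label. The series' design text counts mice of each genotype and adds that samples have 2 replicates, without saying what these are. Each library was treated as 1 mouse. If some libraries share a mouse or culture, n is smaller than given and the SD and SE reflect partly technical spread. Genes with a mean of at least 1 CPM (667 genes) were fitted with the quasi-likelihood method of edgeR 4.0.16 in R 4.3.3 with the deposited library sizes. SE values were derived from the F statistic. The fit was run on simulated counts of 667 genes, of which 200 were changed, all with a common dispersion. These settings differ from the data, where all genes were preselected, so this checked the fold change estimates and not the SE values or calls. The stricter adjustment took Benjamini-Hochberg values of the edgeR quasi-likelihood test over 19734 genes and gave unlisted genes the largest possible p-value. Counting intervals cover counting error only. Positions and exon lengths came from GENCODE M21 (GRCm38, also called mm10), which held 742 of 752 identifiers, and promoters from RefSeq. Alternatives used limma 3.58.1 and DESeq2 1.42.0.

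Named genes were the pair, Batf, listed members of the gene lists (up to 12 of the shared signalling list), listed genes within 1 Mb and the 5 genes most like each of the pair. The members and lists were chosen with earlier results of these data known.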

Additional observations from a re-analysis of the deposited data

How the results depend on the processing

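The log2 fold changes of Tyro3 and Met stayed positive under each alternative that gave a value. Both were chosen on this comparison and no Batf KO library overlapped wild type, so leaving a library out could not reverse the sign. With limma on log2(CPM + 1) they were 1.19 for Tyro3 and 0.98 for Met, because a pseudocount near the level of a gene shrinks its fold change. With a library left out, Tyro3 ran from 1.45 to 1.82 and Met from 1.36 to 1.66. The difference between the group means of the within-library log2 ratio of Tyro3 to Met ran from -0.26 to 0.35, so its sign is not determined. It was taken from these ratios and not from the fitted log2 fold changes. With a library left out, the Met to Tyro3 level per kilobase ran from 0.41 to 0.57 in Batf KO and from 0.45 to 0.61 in wild type. Taking the length of the longest annotated coding transcript instead, it was lower, at 0.40 in Batf KO and 0.42 in wild type. With a mean of at least 5 CPM neither gene was fitted. Adjusting edgeR's quasi-likelihood p-values over 19734 genes could only remove calls, since unlisted genes could not be called. Tyro3 and Met kept their calls. Apart from them, the adjustment left 0 of 56 receptor tyrosine kinase genes, 1 of 22 TAM pathway genes (Socs3) and 1 of 25 MET pathway genes (Ptprj). It left 3 of 65 shared signalling genes. It left 0 of the 50 protein-coding genes within 1 Mb of Tyro3 and 0 of the 10 within 1 Mb of Met. Over all genes tested the share was 1.45%. Kit and Plau were not fitted, so this rule could not call them. Within 2 Mb, 2 of the 88 other protein-coding genes around Tyro3 were listed (2.27%, beside 3.81% of all genes tested), and 0 of the 13 around Met. The 2 were Nusap1 and Plcb2, which lay 1069 kb upstream of Tyro3 and was lower in Batf KO. For 27 other named genes fitted, also all taken from the listed genes, 0 values reversed, 12 moved by at least their spread between libraries and 440 did not. The comparisons with wild-type replicates 1 and 2 alone, or 3 and 4 alone, were chosen after seeing the data. No paired analysis was possible because KO and wild-type titles share no number. Precision is limited by depth: in wild-type replicate 4, Met had 13 reads and Kit 6.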
